A study of Homo sapiens with 16 samples.

Results

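The HOX genes were followed in HCT116 and RKO, both human cell lines from colon cancer, on the Affymetrix Human Genome U133 Plus 2.0 array. HOX members were all probe sets with a single platform gene symbol of the form HOXA, HOXB, HOXC or HOXD plus a number, without antisense genes. This rule took 44 of the 54675 probe sets, which name 28 of the 19775 genes with such a symbol on the array and 28 of the 39 HOX genes in the RefSeq gene table: 1 HOXA gene (HOXA2, 1 probe set), 10 HOXB genes (19 probe sets), 9 HOXC genes (9 probe sets) and 8 HOXD genes (15 probe sets). The other HOXA genes were not analysed here, since no probe set is named for one of them alone in the platform table used.

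Each line had 8 arrays, 1 for each of 8 conditions: an untreated control, PJ-34 alone, 5-aza-dC alone, TSA alone, then PJ-34 combined with 5-aza-dC, PJ-34 combined with TSA, 5-aza-dC combined with TSA, and all 3 drugs. 5-aza-dC inhibits DNA methyltransferases and was given at 0.5 µM, TSA inhibits histone deacetylases and was given at 150 nM, and PJ-34 inhibits poly(ADP-ribose) polymerases. HCT116 received 3 µM of PJ-34, while for RKO the sources give 2 µM in one place and 3 µM in another. RNA was collected after 3 days. A condition has no replicate array, so a drug effect within a line compares the 4 arrays with the drug and the 4 arrays without it, and the lines are compared over 8 arrays each. A probe set is a group of short probes that reads a transcript, its signal is an intensity in arbitrary units, and a signal of one probe set was never set against that of another, because probe sets differ in how strongly they hybridize. Where signals of a line are listed, they stand in the order of conditions given above. Each line is an established culture, so an array signal is an average over the culture and cannot tell fewer expressing cells from less RNA per cell.

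HOX genes encode homeodomain transcription factors that lie in 4 clusters on different chromosomes. During development they are switched on in the order in which they lie in the cluster, from low-numbered genes at the anterior of the body axis to high-numbered genes at the posterior, and adult tissues keep a part of this pattern as a HOX code. Polycomb proteins hold silent HOX genes under repressive histone marks and Trithorax proteins keep active ones open, while retinoic acid turns on the low-numbered genes, and the proteins act on DNA together with cofactors of the PBX and MEIS families. In the colon, genes of several clusters stay active, among them the high-numbered HOXB13.

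As drugs that act on DNA methylation and chromatin were compared, the sequence at the start of the genes was read from RefSeq promoter windows (GRCh38.p14, 250 bases before to 50 bases after the start). A window was at hand for 11 of the 28 HOX genes. These 11 windows held 4 to 36 CG dinucleotides, the sites of DNA methylation, with a median of 19, against a median of 14 over all 35116 windows. HOXC4 and HOXC5 have one and the same window, at chr12:54016638-54016937 on the plus strand, with 15 CG dinucleotides, and it is shown because the table gives both genes a single start and both were brighter in RKO. The HOXD8 window (chr2:176129455-176129754, plus strand) held 34 CG dinucleotides, more than 84.4% of all windows, and belongs to a gene at 250 or more on every array. The HOXD13 window (chr2:176092471-176092770, plus strand) held 24, more than 66.1% of all windows, and belongs to a gene that stayed under 250 on every array. In the 3 sequences, printed 5′ to 3′, capitals mark each CG.
HOXC4 and HOXC5: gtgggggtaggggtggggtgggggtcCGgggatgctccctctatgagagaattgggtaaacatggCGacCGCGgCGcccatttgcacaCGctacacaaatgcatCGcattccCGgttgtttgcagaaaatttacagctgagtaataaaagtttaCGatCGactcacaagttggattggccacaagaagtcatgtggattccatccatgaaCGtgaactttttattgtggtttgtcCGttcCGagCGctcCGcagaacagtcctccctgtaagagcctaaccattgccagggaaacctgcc
HOXD8: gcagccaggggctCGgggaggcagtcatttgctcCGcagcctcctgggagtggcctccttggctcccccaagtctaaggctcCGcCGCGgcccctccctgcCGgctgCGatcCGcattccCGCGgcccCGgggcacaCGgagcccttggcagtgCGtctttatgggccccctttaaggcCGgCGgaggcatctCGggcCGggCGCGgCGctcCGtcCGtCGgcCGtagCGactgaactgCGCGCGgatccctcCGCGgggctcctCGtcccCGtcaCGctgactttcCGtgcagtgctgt
HOXD13: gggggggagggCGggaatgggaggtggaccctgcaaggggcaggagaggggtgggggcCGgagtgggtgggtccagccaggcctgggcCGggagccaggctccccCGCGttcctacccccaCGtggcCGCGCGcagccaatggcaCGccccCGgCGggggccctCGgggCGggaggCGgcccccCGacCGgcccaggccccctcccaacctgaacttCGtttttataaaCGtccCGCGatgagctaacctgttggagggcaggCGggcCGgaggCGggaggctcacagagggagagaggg
The window of HOXD1 held 36 CG dinucleotides and that of HOXD4 held 4, so windows of one cluster lay at both ends of the range. The motif TGATNNAT, a core of the joint PBX and HOX recognition sequence, was searched on both strands and found in 3 of the 11 windows (HOXA2, HOXB1 and HOXD11), against 7.4% of all windows. A match of letters is a description and not a binding site.

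Before the results, the identity of the arrays was checked. Trimmed means lay at 1000.14 to 1000.16 on the 16 arrays and median signals at 152 to 210.1. All 5 epithelial markers (EPCAM, KRT8, KRT18, KRT19 and CDH1) were bright in HCT116, and all 5 were higher in HCT116 than in RKO. In RKO, KRT19 lay between 4.95 and 18.2, under 50 on all 8 arrays. CDH1 lay between 3.90 and 117 there, under 50 on 6 arrays and highest on the array with 5-aza-dC alone. RKO kept EPCAM (at least 3544) and KRT18 (at least 14319). Of other cell types, the blood markers PTPRC and CD3E stayed at or under 226 on all 16 arrays and the endothelial markers VWF and CDH5 at or under 214, while PECAM1 lay between 159.9 and 405 and was not called between the lines. Among 3 fibroblast markers COL1A1 (491 to 3518 in HCT116, at most 83.5 in RKO) and COL3A1 (at most 165) were called higher in HCT116 in the limma fit described below and DCN was not. Without the pair of RKO arrays named below, COL3A1 was not called (0.86, adjusted p 0.178 in limma), while COL1A1 was (4.75, adjusted p 7.51e-10). COL1A1 and COL3A1 were each under 50 on 6 RKO arrays, so the size of both differences depends on the floor of 50 in that fit. The gut marker KRT20 ran from 258 to 3566 in HCT116 and from 4.84 to 314 in RKO. Other gut markers in HCT116 were VIL1 (19.3 to 253), CDX1 (23.7 to 244) and CDX2 (51.2 to 222). Their highest RKO signals were 198, 94.5 and 214. Of 3 gut markers tested between the lines, only KRT20 was called. The part of these markers in the line differences was not tested. A pair of RKO arrays stands against its labels. Over 238 probe sets that rose with 5-aza-dC in HCT116, the median log2 signal over the RKO control was 0.54 on the array labelled PJ-34 and 0 on the array labelled PJ-34/5-aza-dC, while it was 0.55, 0.60 and 0.71 on the other RKO arrays with 5-aza-dC and 0.06 and 0.09 on the other RKO arrays without it. Labels were kept as deposited, and the drug values in RKO and the calls between the lines are given with and without both of them. Both were picked by their response to 5-aza-dC, so a test of 5-aza-dC without them is not independent of that choice.

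In both lines the genes at 250 or more on the control array were mainly HOXB and HOXC genes, among the 28 genes read. Only 1 of these 28 is a HOXA gene, so the part of the HOXA cluster in the HOX code is not known here. On the control array of HCT116, 16 of the 28 genes had a signal of 250 or more, 7 lay between 50 and 250 and 5 under 50, each gene being read from its brightest probe set. On the control array of RKO, 18 genes had 250 or more, 6 lay between and 4 were under 50. Median signals of the arrays were 152 to 210.1, so the limit of 250 lies not far above the middle of an array. The share of all genes past this limit was not counted, so these counts do not set HOX genes apart from other genes. In HCT116 the genes at 250 or more were 9 of 10 HOXB genes (all but HOXB1), 5 of 9 HOXC genes (HOXC4, HOXC6, HOXC8, HOXC9 and HOXC10) and 2 of 8 HOXD genes (HOXD4 and HOXD8). In RKO they were 8 of 10 HOXB genes (HOXB2 to HOXB9), 7 of 9 HOXC genes (HOXC4 to HOXC11) and 3 of 8 HOXD genes (HOXD4, HOXD8 and HOXD9). Through all 8 arrays of a line, 11 genes stayed at 250 or more in HCT116 and 16 in RKO.

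Some genes were dim in both lines. HOXA2, which patterns the hindbrain and the second branchial arch, had a median signal of 100.1 in HCT116 and 70.8 in RKO. HOXB1, a hindbrain gene, had medians of 86.2 and 86.1. The HOXD genes numbered 10 to 13, which pattern the distal limb and the genital tract, stayed under 250 on all 16 arrays, and HOXD12 had a highest signal of 23.6 in HCT116 and 96.0 in RKO. HOXC12 lay between 51.9 and 179 in HCT116 and between 32.3 and 234 in RKO. By the limit of 250, the posterior HOXD genes were thus dim in both lines. HOXB13, the posterior gene of the HOXB cluster, was at 250 or more on all 8 arrays of HCT116. As these are different probe sets, no difference in RNA amount between these genes is shown.

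**Figure D1:**
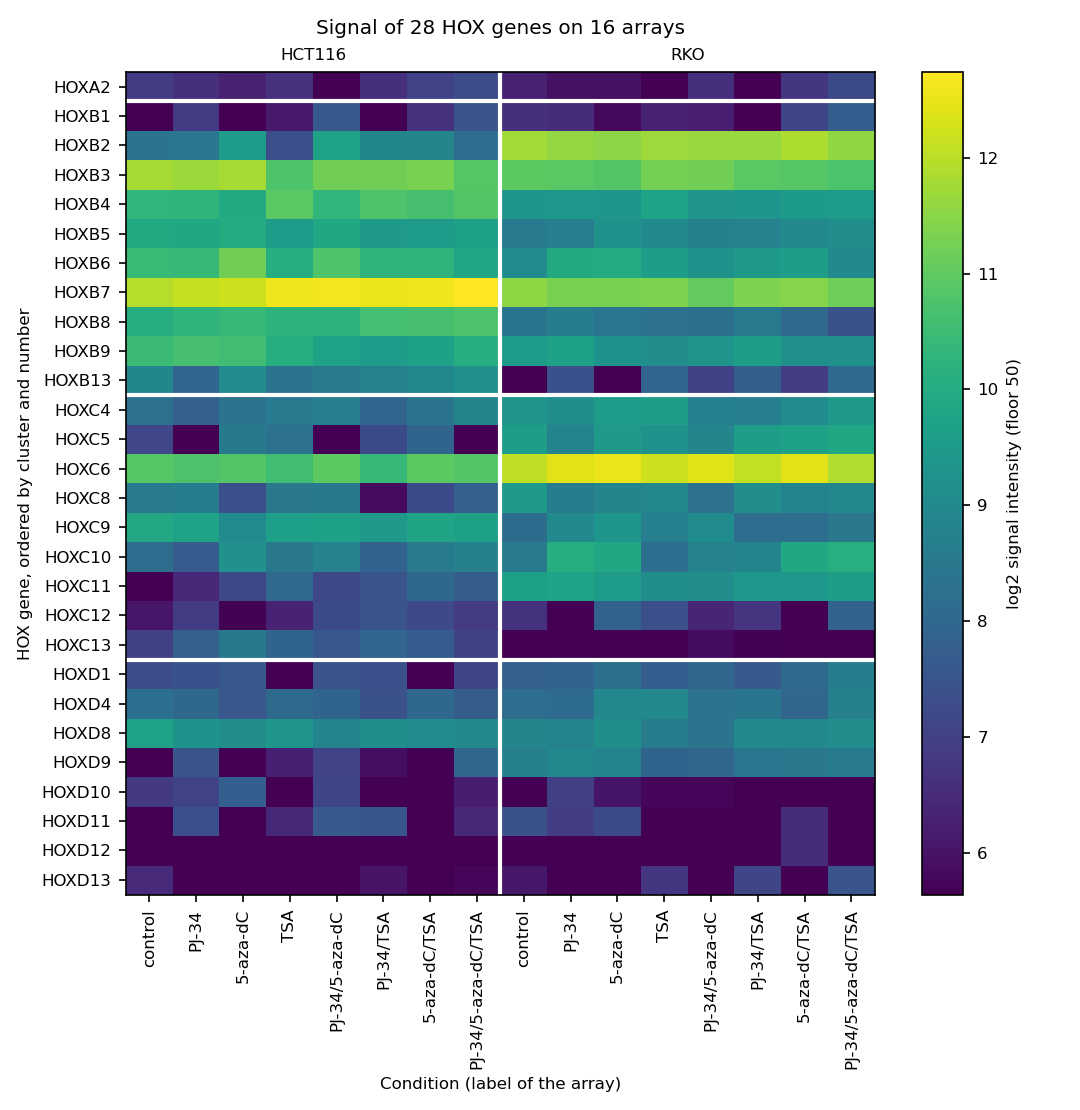
Heat map of the log2 signal intensity (signals under 50 set to 50) of 28 HOX genes (rows, by cluster and number) on 16 arrays (columns, by line and labelled condition), each gene from its brightest probe set. Colours are to be read along a row, since rows come from different probe sets, and the lines do not overlap in 10 rows: HOXB2, HOXB4, HOXB5, HOXB7, HOXB8, HOXC5, HOXC6, HOXC11, HOXC13 and HOXD1.

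The lines differed in most of the HOX genes that could be tested, and the direction of the difference followed the cluster for the most part. A linear model (limma) was fitted to log2 signals, with values under 50 set to 50, over probe sets with 100 or more on 4 or more arrays, and a probe set past an adjusted p of 0.05 was called. Of 37 HOX probe sets that passed this filter, 23 (62.2%) were called, 14 higher in HCT116 and 9 higher in RKO, while 43.8% of all 42119 probe sets tested were called. By gene, 8 of 10 HOXB genes were higher in HCT116 and 1 was higher in RKO. Among the HOXC genes 2 of 9 were higher in HCT116 and 6 were higher in RKO. Of the 6 HOXD genes tested, 2 were higher in RKO and none in HCT116. The median log2 difference, HCT116 minus RKO, was 0.73 over the 19 HOXB probe sets, -0.86 over the 9 HOXC probe sets and -0.17 over 8 HOXD probe sets, against -0.01 over all probe sets tested. HOXA2, the HOXA gene analysed, gave a log2 difference of 0.37 (SE 0.28, adjusted p 0.328) and was not called. Of the 23 calls, 21 were of probe sets that passed the filter in each line by itself, whereas HOXC13 passed in HCT116 alone and HOXD9 in RKO alone, so that both entered through the line in which they are high and had to differ. Without both RKO arrays in doubt, 21 HOX probe sets were called, where 35.5% of all were, and the medians were 0.65 for HOXB, -0.87 for HOXC and -0.72 for HOXD. The 8 arrays of one line lay wholly above those of the other for 11 of the 37 probe sets (29.7%), as for 19.7% of all probe sets tested.

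In the HOXB cluster the brighter line changed between neighbouring genes. HOXB2, a hindbrain gene, ran from 165 to 857 in HCT116 (median 409) and from 2926 to 3725 in RKO (median 3199), without overlap. It was the HOXB gene that was higher in RKO, with a log2 difference of -2.98 (SE 0.18, adjusted p 1.66e-09) in limma, or 7.88-fold. HOXB3, next to it in the cluster, had a median of 2448 in HCT116 (1774 to 3622) and 1946 in RKO (1707 to 2430.1), with a log2 difference of 0.37 (SE 0.12, adjusted p 0.0192). The HOXB3 ranges overlapped, and its call was kept in 11 of 23 alternative analyses, 6 of the 16 that left out 1 array. It was lost, at 0.31 to 0.34, without the HCT116 control array, without any of the HCT116 or RKO arrays labelled with PJ-34 alone, 5-aza-dC alone, PJ-34/TSA, or TSA with 5-aza-dC, and without the RKO array with all 3 drugs. Its second probe set gave 0.36 (SE 0.33, adjusted p 0.419 in limma) and was not called.

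From HOXB4 to HOXB9 the signals were higher in HCT116. HOXB4, which supports the growth of blood stem cells when overexpressed, had a median of 1446 in HCT116 (1009 to 1933) and 677 in RKO (648 to 859), a limma log2 difference of 1.05 (SE 0.11, adjusted p 8.19e-07). HOXB7, which is overexpressed in several cancers, had 5997 (3986 to 6831) and 2573 (2085 to 2938), with a log2 difference of 1.11 (SE 0.08, adjusted p 2.00e-08). All 3 HOXB7 probe sets were called in the same direction, by 0.61 to 1.11 on the log2 scale. HOXB8, which holds back myeloid differentiation when overexpressed, had the largest HOXB difference in this direction, with 1289 in HCT116 (1062 to 1744) and 328 in RKO (168 to 404), and a log2 difference of 2.13 (SE 0.14, adjusted p 7.47e-09). A dimmer HOXB8 probe set gave 0.56 with an adjusted p of 0.21 in limma and was not called. HOXB5, HOXB6 and HOXB9 differed by 0.85, 0.90 and 0.73 on the log2 scale (SE 0.14, 0.13 and 0.15), all called, and the second probe sets of HOXB6 (0.61) and HOXB9 (0.23) were not called.

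HOXB13, the posterior gene of the cluster and a gene of prostate and colon, had a median of 461 in HCT116 (250.4 to 588) and 151 in RKO (32.7 to 268), with a log2 difference of 1.66 (SE 0.27, adjusted p 0.000113) in limma. The 2 brightest RKO arrays, TSA (250.5) and all 3 drugs (268), reached into the HCT116 range. Without both RKO arrays in doubt the difference was 2.20. Its second probe set differed by 0.90 (SE 0.30, adjusted p 0.0217 in limma) and kept its call in 13 of 23 alternatives. That call was lost without both RKO arrays in doubt (1.02), with matched conditions as a block (adjusted p 0.088 in limma) and, at 0.67 to 0.85, without the HCT116 array with TSA alone, 5-aza-dC alone, PJ-34/TSA or PJ-34/5-aza-dC, or the RKO array with TSA alone, 5-aza-dC alone or all 3 drugs.

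Most HOXC genes were brighter in RKO. HOXC5 had a median of 146 in HCT116 (16.7 to 368) and 740 in RKO (464 to 954), a limma log2 difference of -2.40 (SE 0.25, adjusted p 1.18e-06). HOXC4, which shares its start with HOXC5 in the window printed above, had medians of 328 and 611, with a log2 difference of -0.83 (SE 0.19, adjusted p 0.00195). The HOXC5 arrays of the lines did not overlap, while those of HOXC4 did. HOXC6, a gene of the thoracic region, ran from 1345 to 1993 in HCT116 and from 3825 to 5859 in RKO, with a log2 difference of -1.48 (SE 0.09, adjusted p 2.60e-09). HOXC11, a posterior gene of the hind limb, had a median of 161 in HCT116 (45.0 to 267) and 721 in RKO (555 to 843), with a log2 difference of -2.25 (SE 0.23, adjusted p 1.02e-06). HOXC6 and HOXC11 did not overlap between the lines either, and HOXC4, HOXC5, HOXC6 and HOXC11 were called in all 23 alternatives. HOXC8 differed by -1.08 (SE 0.30, called in 22 of 23 alternatives) and HOXC10 by -0.86 (SE 0.26, called in 17 of 23). The HOXC10 call was lost without the RKO array labelled PJ-34 (-0.55) or that with all 3 drugs (-0.74), and without the HCT116 array with PJ-34 (-0.70) or with 5-aza-dC/TSA (-0.62).

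Within the same cluster HOXC9 and HOXC13 went the other way. HOXC9, a thoracic gene that also marks motor neuron columns, had a median of 830 in HCT116 (541 to 974) and 383 in RKO (284 to 664), with a log2 difference of 0.99 (SE 0.19, adjusted p 0.000576) in limma. HOXC13, which drives hair and nail keratin genes, ran from 129 to 363 in HCT116 and from 22.6 to 59.4 in RKO, where 6 of 8 arrays were under 50. Its ranges did not overlap, and the log2 difference was 2.01 (SE 0.30, adjusted p 3.74e-05). As RKO values under 50 were set to 50, this difference depends on that floor and is no measure of the true ratio, and its value was 1.05 to 2.49 over the alternatives. The same floor acted on 3 HCT116 arrays of HOXC5, 3 of HOXD9, 2 of HOXD1 and 1 of HOXC11, and on 2 RKO arrays of HOXB13.

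In the HOXD cluster HOXD9 and HOXD1 were called. HOXD9, a gene of the lumbar region and the limb, had a median of 68.8 in HCT116 (34.7 to 251) and 365 in RKO (242 to 496), with a log2 difference of -2.03 (SE 0.32, adjusted p 7.29e-05). It did not pass the filter in HCT116, so its difference too depends on the floor, with -2.35 to -1.52 over the alternatives. Its second probe set gave -0.13 and was not called. HOXD1 lay between 8.04 and 192 in HCT116 and between 196 and 394 in RKO, with a log2 difference of -1.05 (SE 0.26, adjusted p 0.00411), and its call was lost without both RKO arrays in doubt (-0.73). HOXD8 was at 250 or more on all 16 arrays and gave 0.32 (SE 0.15, adjusted p 0.106 in limma), and HOXD4 gave -0.58 (SE 0.24, adjusted p 0.066 in limma). Neither was past the test.

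**Figure D2:**
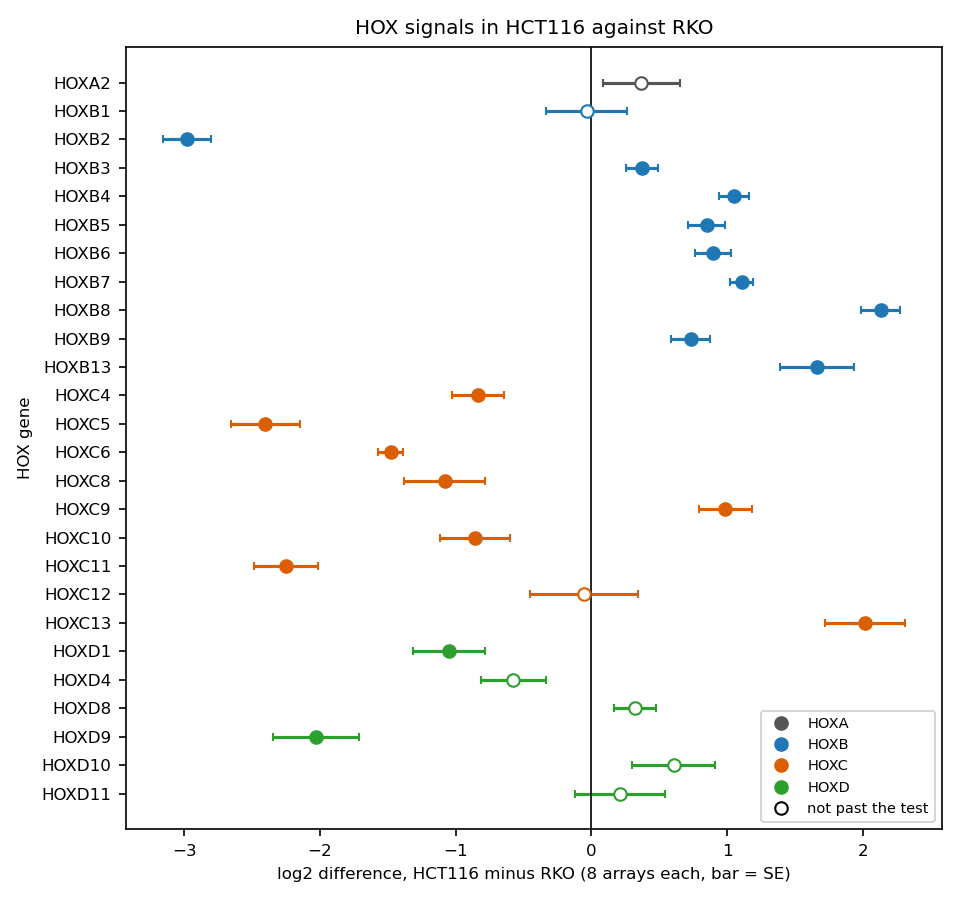
Log2 difference in signal, HCT116 minus RKO (x axis, 8 arrays per line, bars are the SE of the limma fit), of the HOX genes tested (y axis, brightest probe set of each gene), coloured by cluster, with filled points past an adjusted p of 0.05. HOXB genes lie right of 0 apart from HOXB2 (-2.98) and HOXB1, and HOXC genes lie left of 0 apart from HOXC9 (0.99) and HOXC13 (2.01).

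Genes tied to the HOX clusters were compared in the same limma fit, in which 43.8% of all probe sets were called. Of 9 tested neighbours of the clusters, 3 were higher in HCT116 and 1 in RKO. SKAP1, which lies next to the HOXB cluster and encodes a T cell adaptor, differed by 3.69, HIBADH and SKAP2 near the HOXA cluster by 1.14 and 0.62, and LNPK near the HOXD cluster by -1.03. Of 8 RNA genes of the clusters, 1 was higher in HCT116 (HOXA-AS3, 1.45) and 3 were higher in RKO (HAGLR and HOXD-AS2 in the HOXD cluster, -2.07 and -0.81, and HOXB-AS1, -1.41). Of 7 TALE cofactors, PBX4 was higher in HCT116 (1.38), and PBX3 (-3.09) and PBX2 (-0.52) were higher in RKO. PBX3, which binds DNA with HOX proteins, ran from 231 to 878 in HCT116 and from 3045 to 5106 in RKO. Of 17 Trithorax and Polycomb genes, 6 were higher in each line. EZH2, EED and SUZ12, the core of the Polycomb complex that methylates histone H3, were all higher in RKO, by 0.49, 0.52 and 0.58 on the log2 scale. Of 9 retinoid receptors and enzymes, 5 were higher in HCT116 and none in RKO, with ALDH1A3, which makes retinoic acid, at 8.26. None of the 4 ParaHox genes tested was called. ALDH1A3 was under 50 on 4 RKO arrays, SKAP1 on 5 and HOXA-AS3 on 6, so their values depend on the floor and are no measure of the true ratio. The 4 of 9 neighbours, 4 of 8 RNA genes, 3 of 7 cofactors and 5 of 9 retinoid genes called were near the share of the whole array, and the 12 of 17 Trithorax and Polycomb genes were above it, which was not tested. HOXA-AS3, HOXB-AS1 and HOXD-AS2 were not called without both RKO arrays in doubt (adjusted p 0.0638, 0.0601 and 0.136 in limma), nor were WDR5, RBBP5, PCGF2 and CYP26A1 of these lists.

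With TSA a few HOXB genes of HCT116 were called, in opposite directions, and these calls depended on single arrays. With limma, HOXB4 and HOXB7 rose and HOXB3 fell, while no HOXC or HOXD gene was called. This is 4 of 33 HOX probe sets tested (12.1%), 3 up and 1 down, against 8.99% of all 35373 probe sets tested, so the share called was close to that of the array. The median log2 change was -0.35 over 18 HOXB probe sets, 0.04 over 9 HOXC probe sets and -0.13 over 5 HOXD probe sets, against -0.07 over all probe sets. In the HOXB cluster 12 of 18 probe sets had an unadjusted p under 0.05, as did 14 of all 33 HOX probe sets and 24.0% of all probe sets tested. For 7 of the 33 HOX probe sets (21.2%) the 4 arrays with TSA did not overlap the 4 without, as for 13.2% of all probe sets tested.

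HOXB4 was 1279.8, 1258, 1009 and 1271 without TSA and 1933, 1758, 1613 and 1846 with it. All 4 arrays with TSA lay above all 4 without, and limma gave a log2 change of 0.57 (SE 0.15, adjusted p 0.0268). HOXB3 was 3489, 3262, 3622 and 2354 without TSA and 1774, 2348, 2543 and 1876 with it. It was lower in all 4 pairs of arrays that differ in TSA alone, and the groups overlapped, with a log2 change of -0.57 (SE 0.16, adjusted p 0.0418) in limma. HOXB7 was 3986, 4424, 4668 and 6272 without TSA and 6094, 5899, 6137 and 6831 with it. It was higher in 4 of 4 pairs, with a log2 change of 0.39 (SE 0.11, adjusted p 0.0499) in limma, and a second probe set gave 0.42 (SE 0.12, adjusted p 0.0465). The third HOXB7 probe set gave -0.04 and was not called, nor was the second of HOXB3, with -1.30 (SE 0.51, adjusted p 0.131 in limma).

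The remaining HOXB genes of HCT116 did not pass the test. HOXB6 was 1383, 1337, 2366 and 1768 without TSA and 1064, 1226, 1232 and 893 with it. Its arrays with TSA were all below those without, with a log2 change of -0.61 (SE 0.19, adjusted p 0.0572) in limma. On the log2 scale HOXB2 gave -0.69, HOXB5 -0.37, HOXB9 -0.52 and HOXB8 0.34, while the second HOXB8 probe set gave -0.33. HOXB13 gave 0.20, and its second probe set gave 1.19 (SE 0.39, adjusted p 0.0765 in limma) and was higher in 4 of 4 pairs. In a fit with the matched conditions as a block, HOXB6 (-0.61, adjusted p 0.0276 in limma) and the second HOXB9 probe set (-0.64, adjusted p 0.0421 in limma) were called as well, where 13.1% of all probe sets were. The median of HOXB in HCT116 thus holds 4 genes with values under 0 that were not called beside the called HOXB3. In the HOXC cluster, HOXC11 was 45.0, 88.1, 144 and 144 without TSA and 267, 178, 257 and 212 with it, so that the groups did not overlap, with a log2 change of 1.21 (SE 0.43, adjusted p 0.0991) in limma. In the HOXD cluster, HOXD10 was lower on all arrays with TSA (-1.42, adjusted p 0.0928 in limma). HOXD10 ran from 6.84 to 218 in HCT116 and was under 50 on 3 arrays, so its value depends on the floor.

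These TSA calls rested on few arrays. The count of HOX calls was 0 without the control array, without the PJ-34 array or without the 5-aza-dC array of HCT116, and 7 without its PJ-34/5-aza-dC array, while it was 1 without the TSA array or the array with all 3 drugs, 2 without the 5-aza-dC/TSA array and 3 without the PJ-34/TSA array. HOXB4 kept its call in 9 of 15 alternatives, HOXB3 in 7 and HOXB7 in 4, and all of them kept their sign in all 15.

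In RKO no HOX probe set was called for TSA. This is 0 of 29 tested, where limma called 0.00591% (2 of 33862) of the whole array, and 1 HOX probe set had an unadjusted p under 0.05. On the log2 scale the RKO values were -0.02 for HOXB3, 0.17 for HOXB4 and 0.05 for HOXB7, and 0.17, 0.26 and 0.00105 without both arrays in doubt. The RKO medians were -0.06 over HOXB, -0.03 over HOXC and 0.04 over HOXD, and 0.00105, -0.23 and -0.21 without both arrays in doubt. The difference of the TSA effect between the lines was -0.55 (SE 0.24) for HOXB3, 0.40 (SE 0.22) for HOXB4 and 0.33 (SE 0.16) for HOXB7, with adjusted p of 0.375, 0.498 and 0.446 in limma. Without both arrays in doubt it was -0.92 (SE 0.26, adjusted p 0.154), 0.38 (SE 0.30, adjusted p 0.728) and 0.50 (SE 0.21, adjusted p 0.391) in limma. The lines are therefore not shown to differ in these genes, and none of the 37 HOX probe sets was called for this difference, where 0.283% of all probe sets were (4 HOX probe sets at an unadjusted p under 0.05 with limma), nor without both arrays (7 of 37, with 0.291% of all called). HOXB13 had the smallest p in RKO. It was 32.7, 172, 46.8 and 130.2 without TSA and 251, 222, 122 and 268 with it, with a log2 change of 1.25 (SE 0.43, adjusted p 0.277) in limma. It was higher in all 4 pairs, of which 2 use an array in doubt, the groups overlapped, and the change was 1.80 without both arrays in doubt and not called there either. HOXC5 (0.42), HOXC9 (-0.53) and HOXC6 (-0.19) came next by p in RKO, with -0.05, -0.31 and 0.03 without both arrays in doubt, none of them past the test.

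**Figure D3:**
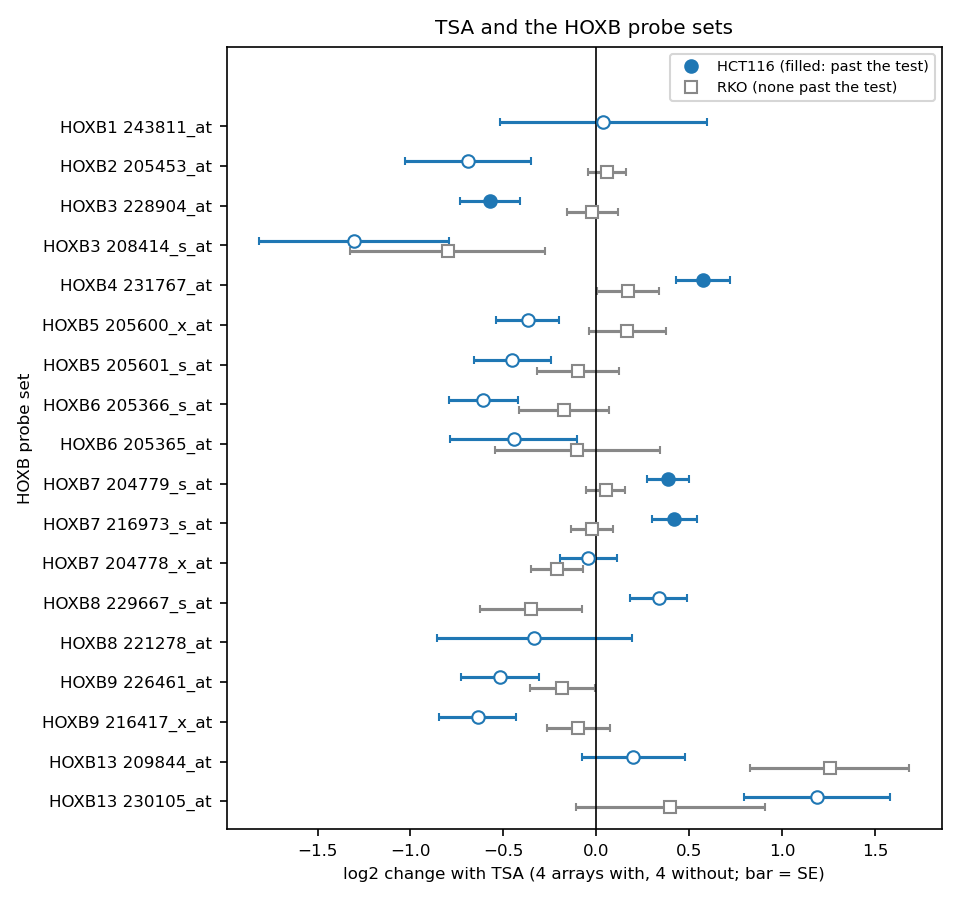
Log2 change with TSA (x axis, 4 arrays with and 4 without, bars are the SE of the limma fit) of the HOXB probe sets tested in HCT116 (y axis), circles for HCT116, filled where past an adjusted p of 0.05, and squares for RKO. HOXB3 (-0.57), HOXB4 (0.57) and both called HOXB7 probe sets (0.39 and 0.42) are filled, and the squares of these genes lie nearer to 0.

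5-aza-dC changed no HOX gene past the test in HCT116. None of the 33 HOX probe sets was called with limma (2 at an unadjusted p under 0.05), while 0.744% of all probe sets were, and 10.6% had an unadjusted p under 0.05. The median log2 change was 0.21 over HOXB, 0.06 over HOXC and -0.13 over HOXD, against -0.01 over all probe sets. HOXC10, which patterns the lumbar region, had the smallest p. It was 292, 210.0, 358 and 235 without 5-aza-dC and 597, 443, 374 and 422 with it. All 4 arrays with the drug were above the 4 without, with a log2 change of 0.75 (SE 0.28, adjusted p 0.336) in limma. HOXD8 was 848, 608, 645 and 580.3 without and 563, 463, 545 and 516 with the drug, lower on each of the 4, with a log2 change of -0.35 (SE 0.21, adjusted p 0.589) in limma. HOXC10 and HOXD8 were 2 of the 33 HOX probe sets (6.06%) without overlap between the groups, as were 4.21% of all probe sets tested.

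HOXB2 was 332, 348, 165 and 477 without 5-aza-dC and 748, 857, 469 and 296 with it in HCT116. The arrays overlapped, the highest values standing on the arrays with 5-aza-dC and no TSA, and limma gave a log2 change of 0.82 (SE 0.34, adjusted p 0.399). HOXB7 gave 0.24 and was higher in 4 of 4 pairs, HOXB4 gave -0.13 and HOXB9 -0.17, none of them past the test.

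In RKO no HOX probe set was called for 5-aza-dC with the labels as deposited, 0 of 29 with limma (1 at an unadjusted p under 0.05), where 0% of all probe sets were called as well (1759 of 33862 at an unadjusted p under 0.05). The medians were -0.11 over HOXB, 0.12 over HOXC and 0.09 over HOXD, against 0.03 over all, and -0.12, 0.17 and 0.27 without both arrays in doubt. By gene, HOXC10 had the smallest p, and of the second probe sets that of HOXB13 gave -1.42 (SE 0.51, adjusted p 0.882 in limma), and -1.30 without both arrays in doubt. The HOXC10 signals in RKO were 389.6, 1064, 929.5, 303, 446, 462, 933 and 1105 in the order of conditions. The arrays labelled 5-aza-dC, 5-aza-dC/TSA and all 3 drugs were at 929.5 to 1105, and the control, TSA and PJ-34/TSA arrays at 303 to 462. The array labelled PJ-34 stood at 1064 with the former, and the array labelled PJ-34/5-aza-dC stood at 446 with the latter. With all 8 arrays limma gave a log2 change of 0.72 (SE 0.37, adjusted p 0.882). Without both arrays in doubt it gave a log2 change of 1.38 (SE 0.21, adjusted p 0.00345) over 3 arrays against 3. HOXC10 was then the 1 HOX probe set called, where 1.96% of 31057 probe sets were called. As both arrays were picked by their response to 5-aza-dC, leaving them out favours such calls. The HOXC10 call is therefore no independent test. The value of HOXC10 in HCT116 was 0.75, and the difference of the effect between the lines was 0.03 (SE 0.52, adjusted p 0.995 in limma) with all arrays and -0.72 (SE 0.41, adjusted p 0.68) in limma without both in doubt. Neither a difference nor equal effects are shown by these values.

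**Figure D4:**
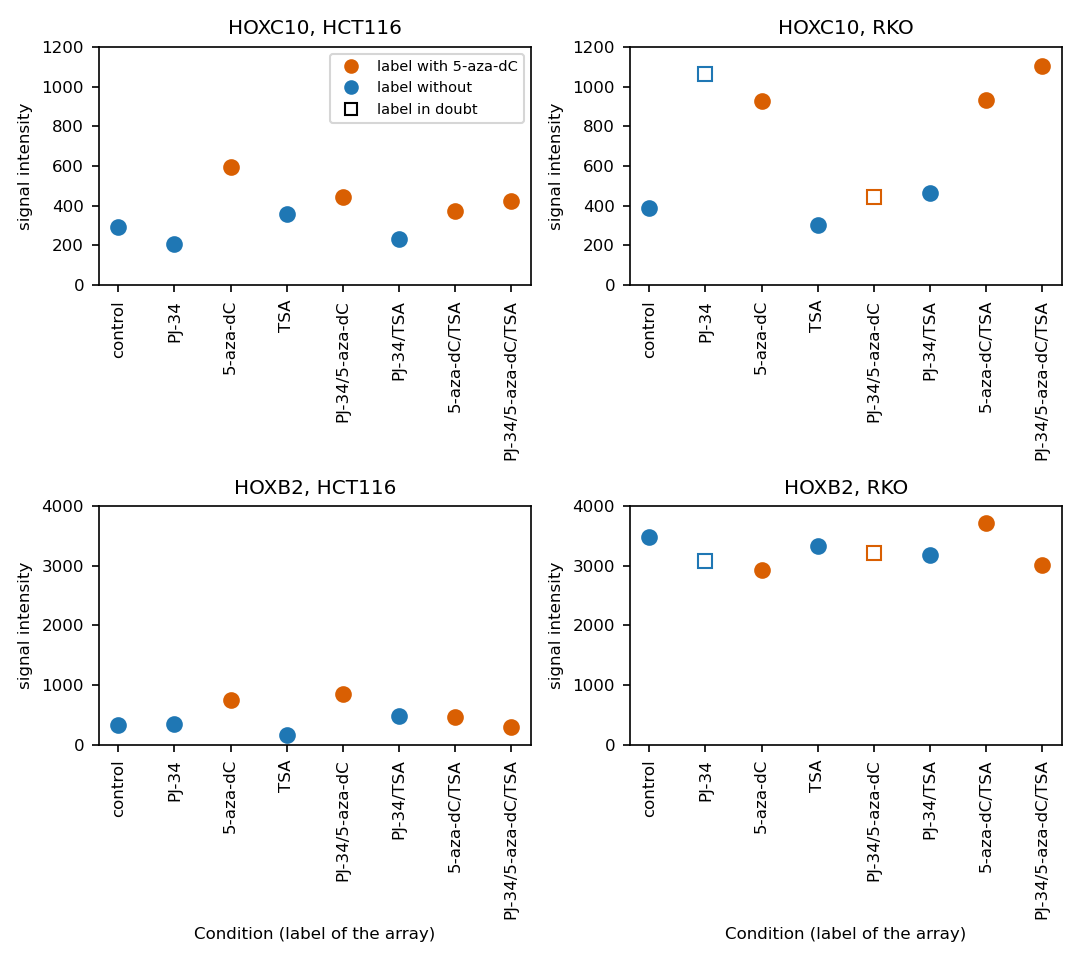
Signal intensity (y axis, linear) of HOXC10 (top) and HOXB2 (bottom) on the 8 arrays of HCT116 (left) and RKO (right) by labelled condition (x axis), orange for labels with 5-aza-dC, blue for labels without, open squares for the RKO arrays whose labels are in doubt. HOXC10 in RKO lies at 929.5 or more on 4 arrays and at 462 or less on 4, and the open squares lie opposite to their colours.

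HOXD1 (0.47) and HOXB5 (0.30) were higher in 4 of 4 RKO pairs with 5-aza-dC, 1 of which is the pair of arrays in doubt, and gave 0.58 and 0.36 without these. HOXB8 gave -0.43, HOXB7 -0.16 and HOXB9 -0.25, and -0.44, -0.12 and -0.20 without both. None of them was past the test. When the effects of 5-aza-dC in the lines were set against each other, 0 of 37 HOX probe sets were called with limma (5 at an unadjusted p under 0.05), where 0.0427% of all probe sets were, and 0 of 37 (5 likewise) without both arrays in doubt, where 0.231% were.

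PJ-34 changed no HOX gene past the test in either line. In HCT116 it was 0 of 33 (2 at an unadjusted p under 0.05) and in RKO 0 of 29 (1 at an unadjusted p under 0.05), where limma called 0% of all probe sets in each line (1323 and 895 at an unadjusted p under 0.05, which is 3.74% and 2.64%). The medians in HCT116 were -0.03 over HOXB, -0.07 over HOXC and 0.04 over HOXD, and in RKO -0.10, -0.16 and -0.00051. Without both RKO arrays in doubt the RKO medians were -0.15, 0.17 and 0.25, so that those of HOXC and HOXD stood on the other side of 0, and still no HOX probe set was called. HOXC5 in HCT116 had the smallest p. It was 143, 368, 318 and 244 without PJ-34 and 16.7, 30.4, 149.6 and 49.6 with it. It was lower in all 4 pairs, 3 of the 4 arrays with PJ-34 being under 50, and limma gave a log2 change of -1.94 (SE 0.50, adjusted p 0.981). Here too values under 50 were set to 50. In RKO, HOXC5 ran from 464 to 954 and the groups overlapped, and the difference of the effect between the lines was not called (-1.73, SE 0.51, adjusted p 1.00 in limma, and -1.93 without both arrays in doubt). No HOX probe set was called for that difference, as 0% of all probe sets were (1468 at an unadjusted p under 0.05, of them 6 HOX probe sets), nor without both arrays in doubt (2 HOX probe sets at an unadjusted p under 0.05 with limma).

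The second HOXB13 probe set had the next p in HCT116, with a log2 change of 1.21 (SE 0.39, adjusted p 0.981 in limma), and was higher in 4 of 4 pairs, while the brighter one gave -0.18. Further genes by p with PJ-34 were HOXD1 (0.80), HOXC12 (0.79), HOXB1 (0.88), HOXC10 (-0.34) and HOXD8 (-0.25) in HCT116. In RKO they were HOXB13 (1.03), HOXB9 (0.17), HOXC10 (0.31), HOXB7 (-0.19), HOXC4 (-0.37) and HOXC8 (-0.27). Without both arrays in doubt these RKO values were, in the same order, 0.48, 0.24, 0.43, -0.14, -0.27 and 0.14, so that HOXC8 stood on the other side of 0. The second HOXB13 probe set gave -0.28 in RKO and -1.31 without both arrays. The difference of the PJ-34 effect between the lines was -1.21 for the brighter and 1.49 for the second HOXB13 probe set, neither of them called. None of these genes was past the test.

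**Figure D5:**
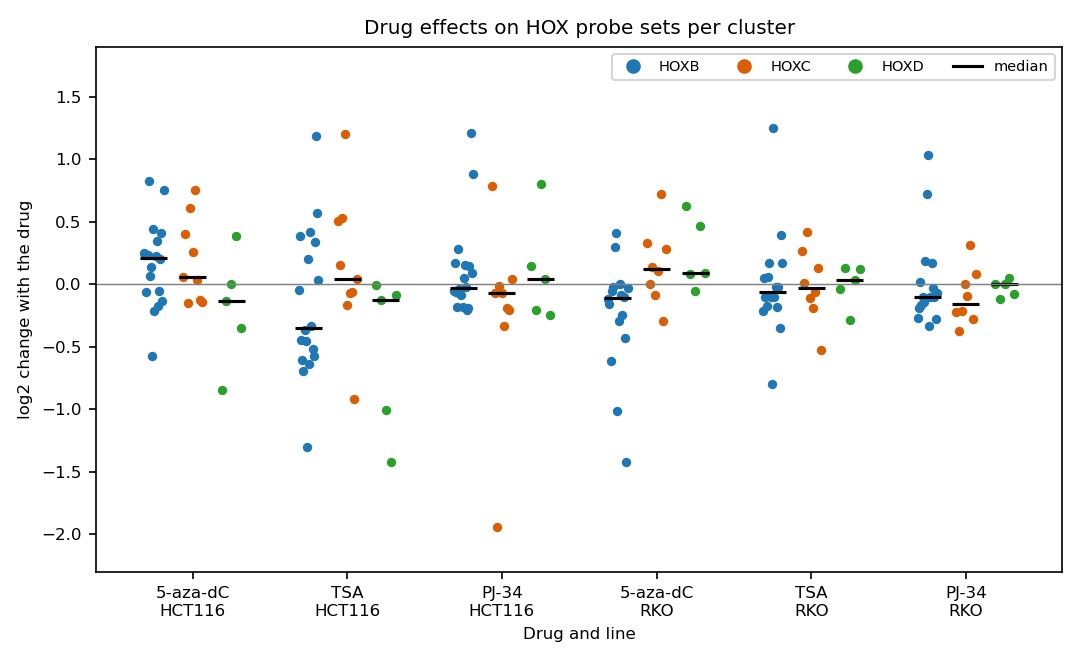
Log2 change with each drug (y axis, limma estimate of 4 arrays with against 4 without) of each HOXB, HOXC and HOXD probe set tested, by drug and line (x axis), with black bars at the cluster medians. The HOXB median under TSA in HCT116 (-0.35) is the one farthest from 0, and the other medians lie between -0.16 and 0.21.

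A probe set counted as reactivated where its control signal was under 50 and a treated signal was at least 50 and 5-fold higher, a ratio of single arrays with no test. Among the HOX probe sets, 10 were under 50 in the HCT116 control and 5 of them met this rule on at least 1 of 7 treated arrays, while 58.3% of all such probe sets did. In RKO it was 6 of 9, against 57.2% of all, and 4 of 9 against 51.7% without both arrays in doubt. These shares were near those of the whole array, so they are no result about HOX genes. HOXC11 was 45.0 in the HCT116 control and met the rule with TSA (267) and 5-aza-dC/TSA (257). HOXB13 was 32.7 in the RKO control and met it on the array labelled PJ-34 (172), with TSA (251), with PJ-34/TSA (222) and with all 3 drugs (268). HOXB13 and, in HCT116, HOXD11 (the arrays with PJ-34 and not all 3 drugs, up to 199) and the dimmer HOXD9 probe set (each drug alone, 143 to 172) did so on 3 or more arrays. The brighter HOXD9 probe set (46.0 in the HCT116 control, at most 251) did not. HOXB1 (RKO 5-aza-dC/TSA, 292), HOXD10 (at most 128), HOXD12 (RKO 5-aza-dC/TSA, 96.0) and HOXD13 (RKO, at most 106) met it on 1 or more arrays, with no replicate. In RKO 5 genes met the rule, and 4 did so without both arrays in doubt.

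Among the genes tied to the clusters, drug calls were few. With TSA in HCT116 3 of 9 cluster neighbours fell (SKAP2 with -0.84, SKAP1 with -0.71 and HIBADH with -0.45), and of 17 Trithorax and Polycomb genes EED rose (0.64) and SUZ12 (-0.55) and PHC2 (-0.44) fell. These 3 of 9 and 3 of 17 stand beside 8.99% called over all probe sets. TALE cofactors, cluster RNA genes, retinoid genes and ParaHox genes had no call with TSA in HCT116, and none of these lists had a call with 5-aza-dC or PJ-34 in either line or with TSA in RKO with the labels as deposited. When both RKO arrays in doubt were left out, EED fell with 5-aza-dC (-0.36, adjusted p 0.0419 in limma), as 1.96% of all probe sets were called, and the neighbour PRAC1 was called too. Both arrays were picked by their response to 5-aza-dC, so neither call is an independent test. In the same HCT116 arrays 2 of 5 epithelial markers rose and 1 fell with TSA, COL1A1 fell (-1.37) as 1 of 3 fibroblast markers, and their part in the HOXB changes was not tested.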

How the data were processed

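RNA of 16 cultures, 8 per cell line and 1 per condition, had been hybridized to Affymetrix Human Genome U133 Plus 2.0 arrays. The authors computed a signal intensity for every probe set with GCOS (the release is not given in the sources used here), then scaled arrays to a common trimmed mean before they deposited the values. Present calls were not used here. Gene names came from the platform annotation: 41097 probe sets have 1 symbol, 1801 several and 11777 none, and 3 probe sets that name several genes, HOX genes among them, were left out. Groups were taken from the labels.

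A floor of 50 was applied to the signals before log2. Control probe sets (62) were left out, and a probe set was tested if 4 or more arrays gave it 100 or more. Of the 44 HOX probe sets, 33 passed in HCT116 (HOXA 1, HOXB 18, HOXC 9, HOXD 5), 29 in RKO (0, 16, 8 and 5) and 37 over both lines (1, 19, 9 and 8). Linear models came from limma (version 3.58.1, under R 4.3.3), with a variance trend and Benjamini-Hochberg adjustment over all probe sets tested, at 0.05, in 10 comparisons. Each line had a term per drug. The model of both lines added the pairs of drugs and the differences in drug effect between the lines. Scripts were tested on simulated data. The labels do not say that arrays of a line came from separate cultures on separate days, so p-values rest on the spread of these arrays around the fit. The fit of a single line adds up the drug effects and has no replicate of a condition. Its spread therefore also holds any joint effect of drugs.

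Each gene was read from its brightest probe set, others being given where a call differed or, for values at an unadjusted p under 0.05, the direction. Named were HOX genes past a test, at 250 or more in a control, or reactivated, and up to 3 per direction with the smallest p where none passed. From other lists, up to 4 genes were named. The members and lists were chosen with earlier results of these data known. The alternatives were the signal floor, the filter, quantile normalization, no variance trend, 1 fit of all arrays, each array left out, the RKO arrays in doubt left out, and, chosen after seeing the data, a block for arrays that share every label but the one compared. The number of arrays limits the precision.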

Additional observations from a re-analysis of the deposited data

How the results depend on the processing

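The count of HOX probe sets called for TSA in HCT116, 4 in the report, was 2 with a floor of 20, 0 without the filter, 1 after quantile normalization, 0 without the variance trend and 7 with all 16 arrays in 1 fit, and it ran from 0 to 7 when 1 array was left out. The cause was not tested. Without both RKO arrays in doubt, which were picked by their response to 5-aza-dC, the count for 5-aza-dC in RKO was 1 (HOXC10) in place of 0. The count between the lines stayed at 19 to 24, against 23. With a limit of 500 for a bright gene, chosen after seeing the data, 10 genes in HCT116 and 11 in RKO were bright, in place of 16 and 18. Over 681 alternative values of single probe sets, 612 kept their side of the threshold, 66 fell below it, 3 rose above it and none changed direction. Of 464 alternative cluster medians, 430 moved by less than the spread, the standard deviation of that median over single pairs of matched arrays. This is a lenient limit, since a fit averages over such pairs. Low signals limit the HOXD genes numbered 10 to 13, HOXA2 and HOXB1. The labels number every array as replicate 1, and no condition has a further array. With arrays that share every label but the one compared as a block, chosen after seeing the data, the count was 6 for TSA in HCT116 (HOXB6 and a HOXB9 probe set joined), 22 between the lines and 0 in the other 8 comparisons.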

Other observations

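PRAC1, which lies beside HOXB13 in the HOXB cluster and is known from prostate and colon, was 4.12 in the HCT116 control, 221 with PJ-34, 692 with 5-aza-dC, 128 with TSA, 833 with PJ-34/5-aza-dC, 70.6 with PJ-34/TSA, 183 with 5-aza-dC/TSA and 67.9 with all 3 drugs. In RKO it was 38.8 in the control, 315 with 5-aza-dC, 128 with TSA, 3.69 with PJ-34/TSA, 420 with 5-aza-dC/TSA and 642 with all 3 drugs. The RKO array labelled PJ-34 stood at 656 and that labelled PJ-34/5-aza-dC at 31.6. With all arrays PRAC1 was not called for 5-aza-dC with limma, with a log2 change of 1.54 (SE 0.62, adjusted p 0.391) in HCT116 and 1.08 (SE 0.88, adjusted p 0.884) in RKO. Without both RKO arrays in doubt it was called in RKO, with a log2 change of 2.68 (SE 0.48, adjusted p 0.011 in limma), higher in 3 of 3 pairs. PRAC1 was named after its values were seen, and the arrays left out were picked by their response to 5-aza-dC, which favours such a call.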
